A study of Macaca mulatta with 10 samples.

Results

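The monocyte genes CD300E, CD14, LYZ, S100A8, S100A9, FCN1, CSF1R, CD68, VCAN and TYROBP, were followed in RNA from sorted Tr1 cells of rhesus macaques. They were taken by symbol from the first column of the raw count table, where all 10 were found among 26484 rows. CD300E was included because the study lists it as raised in Cohort C, and that listing came from the same libraries, so the cohort contrast of CD300E is given as a description. The question asked was whether CD300E counts went with other monocyte RNA in the same libraries.

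Tr1 cells are type 1 regulatory T cells, here sorted as CD4+CD49b+Lag3+ cells from frozen blood mononuclear cells that had been thawed and rested overnight. All monkeys had streptozotocin-induced diabetes, an intraportal islet allograft and the same transient immunosuppression of anti-CD40 antibody, rapamycin, soluble TNF receptor and anti-IL-6 receptor. The 5 Cohort B monkeys (13EP12, 13EP8, 14HP26, 14HP31 and 15CP6) received no apoptotic donor leukocytes (ADLs), and the 5 Cohort C monkeys (13EP5, 14HP33, 14HP24, 15CP1 and 15CP4) received ADL infusions. The labels place sampling at rejection for Cohort B and at the study end point for Cohort C. By the labels, ADL treatment, outcome and time after transplantation therefore cannot be told apart. The study's own records differ from the labels in part, in that 15CP1 was kept past the end point and 13EP12 and 13EP8 are listed without graft loss in the source data. By those records outcome did not follow the cohorts in full. The labels give no ages, and 1 library was made per monkey, so that the p-values measure the spread between these libraries. The study describes the Tr1 gate as CD49b+LAG-3+ cells among CD45RA-CD4+ cells within CD3+ T cells, with doublets and dead cells left out, whereas its stain for sorting names CD4, CD49b and LAG-3. Whether CD3 was part of the sort of these libraries is not given in the sources used here.

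Monocytes are circulating phagocytes that sense microbes, present antigen and give rise to macrophages and some dendritic cells. CD300E is an activating receptor of the CD300 family on myeloid cells, and it signals through the adaptor DAP12, the product of TYROBP. Monocytes are not part of a CD4+ T cell gate, although human monocytes carry some surface CD4, and their transcripts are therefore used as a measure of other RNA in a sorted sample. In bulk RNA, fewer cells of a type and less RNA per cell cannot be told apart.

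Depth differed widely between the libraries, from 6076 total counts in 14HP31 to 5895609 in 15CP1, and 465 to 15068 genes had a count. The log10 total counts differed by 0.504 between Cohort C and Cohort B (exact permutation test, p = 0.429). All 11 genes of a T cell list had a count in at least 1 library, and their summed counts ranged from 0 in 14HP31 to 12489 in 15CP1. Of the markers used in the sort, CD4 had counts in 6 libraries, whereas ITGA2, which encodes CD49b, had 68 counts in all and LAG3 had 38. No library of 14HP31, 14HP33 or 15CP4 held more than 16 counts of the T cell list, and these 3 libraries bear on the results below mainly through their zeros.

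The 10 monocyte genes had 12127 counts in all, of which 3621 were in Cohort B and 8506 in Cohort C. In Cohort B the summed counts were 1513 in 13EP12, 1687 in 13EP8, 421 in 15CP6 and 0 in 14HP26 and 14HP31. In Cohort C they were 931 in 13EP5, 2 in 14HP33, 84 in 14HP24, 7489 in 15CP1 and 0 in 15CP4. Thus 6 libraries held more than 3 counts of the 10 genes, 3 in each cohort, and a further 3 held none. As CPM, each count being divided by the library total and multiplied by 1000000, the 10 genes together had 1270 in 13EP12, 1212 in 13EP8, 924 in 15CP6, 279 in 13EP5, 613 in 14HP24 and 1270 in 15CP1. Per count of the T cell list, monocyte counts were 0.617 in 13EP12, 0.624 in 13EP8, 0.824 in 15CP6, 0.148 in 13EP5, 1.53 in 14HP24 and 0.600 in 15CP1. 15CP1 had the most counts of every member, from 51.5% to 100% of each gene's total, and it was also the deepest library.

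**Figure D1:**
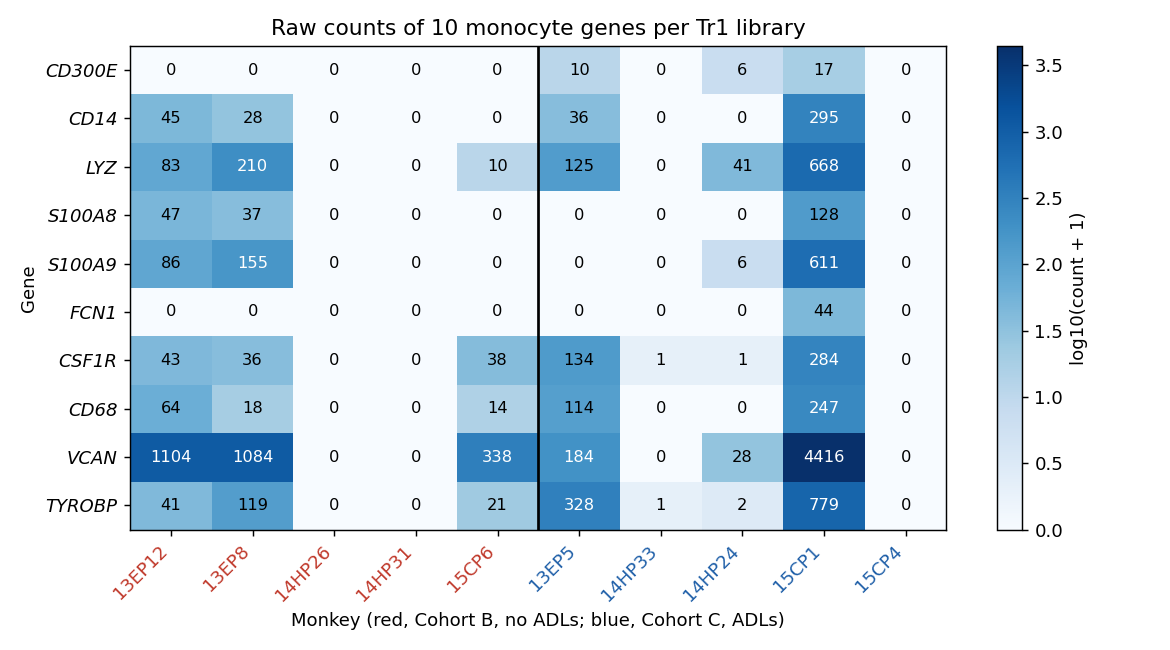
Raw counts of the 10 monocyte genes (rows) in each of the 10 Tr1 libraries (columns, red for Cohort B and blue for Cohort C); the number in a cell is the count and the shade is log10(count + 1). CD300E had counts in 3 Cohort C libraries only, whereas most other members had counts in libraries of both cohorts.

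CD300E was counted 10 times in 13EP5, 6 times in 14HP24 and 17 times in 15CP1, and it had 0 counts in the other 7 libraries. In CPM scaled by the trimmed mean of M-values (TMM), these were 3.12, 34.6 and 3.53. The 3 libraries with CD300E all belonged to Cohort C, but 14HP33 and 15CP4 of the same cohort were at 0 as in all of Cohort B, so the cohorts overlapped. The limit that a count of 0 allows, 3 counts, was 2.52 CPM of the library total in 13EP12, 2.15 in 13EP8, 3.10 in 14HP33 and 6.59 in 15CP6, and it ran from 26.3 to 494 in 14HP26, 15CP4 and 14HP31. CD300E in 15CP1 was at 2.88 on that scale, so 13EP12 and 13EP8 were the only libraries without CD300E in which that level lay above the limit. The deposited FPKM of CD300E was 5.04 in 14HP24 and was listed at 0 in 13EP5 and 15CP1, where the count table had 10 and 17 counts.

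The edgeR quasi-likelihood fit gave CD300E a log2 fold change of 6.27 ± 2.49 (SE) for Cohort C over Cohort B, with a Benjamini-Hochberg adjusted p of 0.141 over 14168 genes. Because every Cohort B library was at 0, that fitted fold depends on the prior count. Pooled over the libraries of Cohort C, CD300E was 4.05-fold above a Cohort B floor on the TMM scale, and 3.34-fold per total count. That floor was 3 counts over the whole of Cohort B. No error of the Cohort C counts enters these values. In log2(CPM + 1), Cohort C had 1.88 ± 2.12 (SD, n = 5) and Cohort B 0 ± 0. The exact two-sided permutation test over all assignments of the libraries gave p = 0.167. All libraries with CD300E were in Cohort C, so this is the lowest p that the tied zeros allow. Without ties the test could reach 0.00794. Zero counts throughout Cohort B were found for 1941 of the genes tested, and 126 of these had counts in 3 Cohort C libraries.

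TYROBP, the adaptor of CD300E and of other activating receptors on myeloid and NK cells, was counted in both cohorts. Its counts were 41 in 13EP12, 119 in 13EP8, 21 in 15CP6, 328 in 13EP5, 1 in 14HP33, 2 in 14HP24 and 779 in 15CP1, and 0 in the other 3 libraries. 3 of 5 Cohort B libraries thus had TYROBP without any CD300E count, and 14HP24 had CD300E with TYROBP at the floor. Its log2 fold change was 0.70 ± 2.04, with an adjusted p of 0.9998. NK cell genes, another possible source of TYROBP, had 204 counts in 13EP12, 154 in 13EP8, 68 in 15CP6, 87 in 13EP5, 538 in 15CP1 and 0 in the other 5 libraries, and their part in the TYROBP counts was not tested.

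CD14, the co-receptor that hands lipopolysaccharide to Toll-like receptor 4, had 45 counts in 13EP12, 28 in 13EP8, 36 in 13EP5 and 295 in 15CP1, and 0 elsewhere. CSF1R, the receptor for colony-stimulating factor 1 on which monocytes and macrophages depend, had 43 in 13EP12, 36 in 13EP8, 38 in 15CP6, 134 in 13EP5, 284 in 15CP1, and 1 each in 14HP33 and 14HP24. Both receptors were present in the deep libraries of both cohorts. In 14HP33 the single CSF1R count was scaled to 14.2 CPM, since the TMM factor of that library was 0.0725. The log2 fold changes were 0.21 ± 2.05 for CD14 and -0.33 ± 2.06 for CSF1R.

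LYZ, which encodes the bactericidal enzyme lysozyme, had 83 counts in 13EP12, 210 in 13EP8, 10 in 15CP6, 125 in 13EP5, 41 in 14HP24 and 668 in 15CP1, and 0 elsewhere. It was the one member other than VCAN with counts above the floor in all 6 libraries with more than 3 counts of the 10 genes. S100A8 and S100A9 encode the subunits of calprotectin, a calcium-binding protein of monocytes and neutrophils. S100A9 had 86 counts in 13EP12, 155 in 13EP8, 6 in 14HP24 and 611 in 15CP1, and S100A8 had 47, 37, 0 and 128 in the same libraries. Neither was counted in 13EP5, which had 931 counts of the 10 genes, nor in 15CP6. FCN1, the lectin M-ficolin that starts complement activation, had 44 counts in 15CP1 and 0 in all other libraries.

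The log2 fold changes of these 4 were 0.66 ± 2.02 for LYZ, -1.30 ± 2.05 for S100A8, -0.28 ± 2.05 for S100A9 and 4.55 ± 1.93 for FCN1. FCN1 had an adjusted p of 0.147 by edgeR's quasi-likelihood test, and all of its counts came from 15CP1. Pooled over Cohort C, FCN1 was 5.41-fold above the Cohort B floor used for CD300E on the TMM scale, and 4.45-fold per total count. No error of the Cohort C counts enters these values. The other Cohort C libraries had no FCN1 count, as in all of Cohort B, so no cohort difference is read from them.

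CD68, a lysosomal glycoprotein of phagocytes, had 64 counts in 13EP12, 18 in 13EP8, 14 in 15CP6, 114 in 13EP5 and 247 in 15CP1, and 0 elsewhere. VCAN, which encodes the matrix proteoglycan versican, had 1104 in 13EP12, 1084 in 13EP8, 338 in 15CP6, 184 in 13EP5, 28 in 14HP24 and 4416 in 15CP1. VCAN gave 59.0% of all counts of the 10 genes. The log2 fold changes were -0.22 ± 2.05 for CD68 and -1.16 ± 1.89 for VCAN.

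None of the 10 monocyte genes passed the study's rule of an unadjusted p under 0.01 with 1.5-fold in edgeR's quasi-likelihood test, against 6.43% of all genes tested (911 of 14168, of which 152 were higher and 759 lower in Cohort C). At an unadjusted p under 0.05, 2 of the 10 passed, CD300E and FCN1, beside 20.6% of all genes. CD300E was chosen from these libraries, and both genes passed the filter on summed counts through Cohort C alone, so nothing is read from that count. No gene passed an adjusted p under 0.05, while 2923 had an unadjusted p under 0.05. The fitted change was positive for 5 members and negative for 5, with a median log2 fold change of -0.01 beside 0.16 over all genes tested. For the 9 members other than CD300E, the exact permutation p ranged from 0.444 to 1. The p of FCN1, counted in 15CP1 alone, was fixed in advance. So was overlap of the cohorts for all 10, since 14HP26 and 14HP31 of Cohort B and 15CP4 of Cohort C had no member count. With standard errors of about 2 log2 units, several-fold differences in either direction were not detectable in these libraries.

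**Figure D2:**
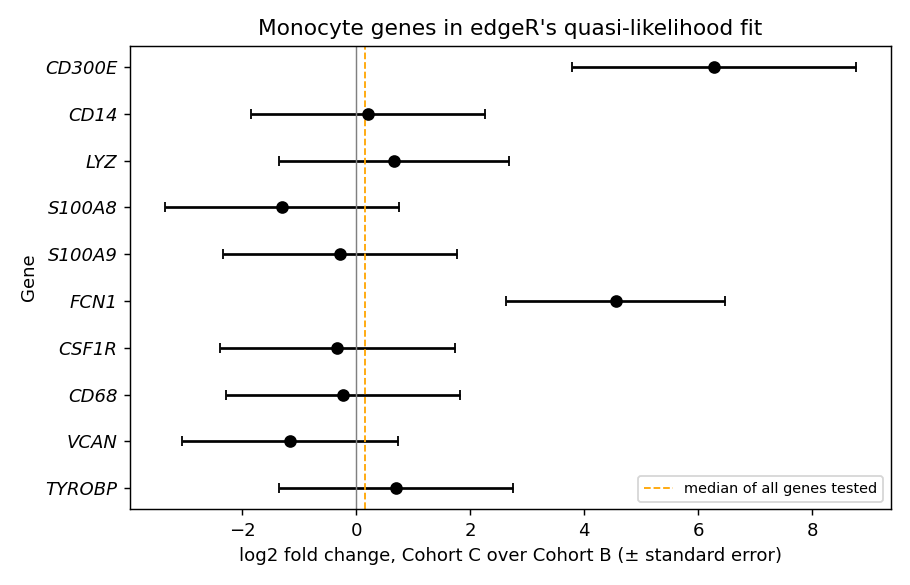
Log2 fold change of each monocyte gene, Cohort C over Cohort B, from edgeR's quasi-likelihood fit (point) with its standard error (bar); the dashed line is the median of all genes tested, 0.16. CD300E at 6.27 and FCN1 at 4.55 stand to the right, with all Cohort B counts at 0, and the other 8 members lie within 1 standard error of 0.

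CD300E was then set beside the other 9 monocyte genes library by library. All 3 libraries with CD300E also held counts of the other 9 genes, 921 in 13EP5, 78 in 14HP24 and 7472 in 15CP1. In 14HP24 these were mainly 41 of LYZ and 28 of VCAN, with CD14, CD68, S100A8 and FCN1 at 0. Counts of the other genes were also found without CD300E. 13EP12, 13EP8 and 15CP6 held 1513, 1687 and 421 counts of the other genes with no CD300E count. The 10 genes together in 13EP12 and 13EP8, 1270 and 1212 CPM of the library total, were at the level of 15CP1. Much of this was VCAN. Per count of the T cell list, the values with VCAN were 0.617 in 13EP12, 0.624 in 13EP8 and 0.600 in 15CP1. Without VCAN they were 0.167, 0.223 and 0.246.

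**Figure D3:**
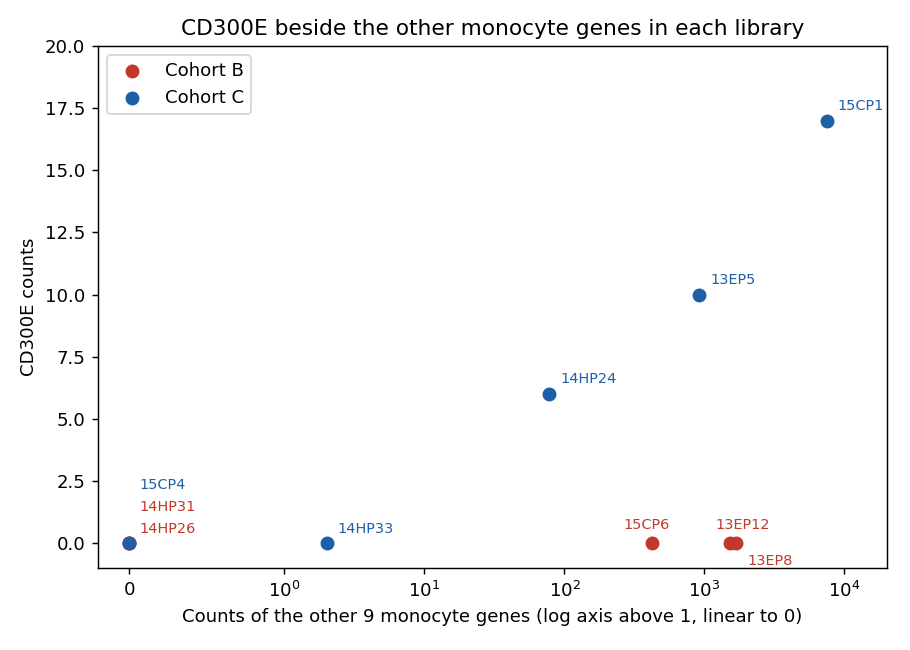
CD300E counts (vertical axis) against the summed counts of the other 9 monocyte genes (horizontal axis, logarithmic above 1) in each library, with names in red for Cohort B and blue for Cohort C; 14HP26, 14HP31 and 15CP4 lie on each other at 0. 13EP12 and 13EP8 have more counts of the other genes than 13EP5 and 14HP24, yet no CD300E count.

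As a share of the counts of the 10 genes, CD300E was 0.227% in 15CP1 (17 of 7489, exact Clopper-Pearson 95% interval 0.132 to 0.363), 1.07% in 13EP5 (10 of 931, 0.516 to 1.97) and 7.14% in 14HP24 (6 of 84, 2.67 to 14.9). The 3 intervals did not overlap, so the ratio of CD300E to the other monocyte genes was not the same in these libraries beyond counting error. In 13EP12, 0 of 1513 counts allows a share of up to 0.198%, in 13EP8 0 of 1687 allows 0.178%, and in 15CP6 0 of 421 allows 0.713%. Each of these limits lies above the lower bound of 15CP1, so no single Cohort B library was deep enough to show a share below that of 15CP1. The limits of 13EP12 and 13EP8 lie below the lower bounds of 13EP5 and 14HP24. That of 15CP6 lies below the lower bound of 14HP24 but not of 13EP5. At the share of 15CP1, 3.44 CD300E counts would have fallen in 13EP12, 3.84 in 13EP8 and 0.958 in 15CP6. Over Cohort B that came to 8.24, where 0 were seen. CD300E was chosen from these libraries, so this is a description.

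Summed over Cohort B, 0 of 3621 counts allows up to 0.0829%, and over Cohort C the share was 0.388% (33 of 8506, 0.267 to 0.544). Without 15CP1 the Cohort C share was 1.57% (16 of 1017, 0.902 to 2.54). These intervals cover counting error only, since the reads carried no stated molecular identifiers, and the spread between the 3 Cohort C libraries was wider than any of them. The share was not tested between the cohorts.

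**Figure D4:**
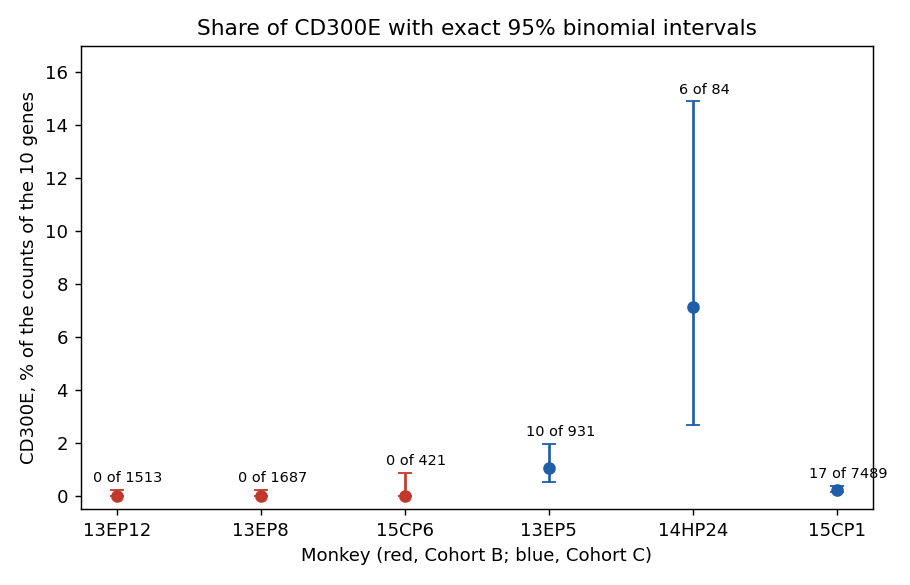
CD300E as a percentage of the counts of the 10 monocyte genes (points) with exact 95% binomial intervals (bars) in the 6 libraries that held more than 3 such counts; red marks Cohort B and blue Cohort C. 14HP24 at 7.14% stands above 13EP5 at 1.07% and 15CP1 at 0.227%, and the Cohort B libraries are at 0.

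Set against other genes, CD300E kept a ratio to total counts in 2 of its 3 libraries. At the level of 15CP1 per total count, 9.64 CD300E counts would have fallen in 13EP5, where 10 were seen, but only 0.395 in 14HP24, where 6 were seen. With the 30 genes of a second monocyte list as the base (among them FGL2, CTSS and MNDA), the share of CD300E was 0.222% in 13EP5 (10 of 4495), 0.199% in 15CP1 and 10.3% in 14HP24. On that base 13EP5 and 15CP1 no longer differed beyond counting error, and 14HP24 still did. FGL2, a secreted fibrinogen-like protein made by monocytes and by regulatory T cells, gave 2674 of the 13EP5 counts of that list and 2942 of the 15CP1 counts.

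Across the 10 libraries, CD300E was most correlated with LYZ in log2(CPM + 1) among the 9 other members, with Pearson r = 0.58 (permutation p = 0.0549, adjusted p = 0.494 over 9 pairs) and Spearman rho = 0.64 (permutation p = 0.0664, adjusted p = 0.567). Without 14HP24 and 15CP1, the 2 libraries farthest from the median of CD300E, r was 0.30 (permutation p = 0.873, 8 libraries), but only 13EP5 then has a CD300E count, so that this value is no check of the relation. Without 14HP24 alone r was 0.49, and without 15CP1 alone it was 0.55. For the other 8 members r ran from -0.10 for S100A8 to 0.35 for S100A9, and it was 0.27 for TYROBP and 0.05 for CD14. No pair passed an adjusted p under 0.05. CD300E had r = 0.15 with the log10 total count of a library and r = 0.23 with its number of detected genes. The index suffix that 3 libraries carry in their labels left too few libraries on that side for a value within each set.

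The genes whose pattern was most like that of CD300E over the 10 libraries were MANEA, ZNRF1, PARGP1, C19orf60 and ZNF764, with r of 0.998, 0.998, 0.998, 0.996 and 0.996. MANEA had 24 counts in 13EP5, 37 in 14HP24 and 60 in 15CP1, and like the other 4 it had 0 counts elsewhere. MANEA encodes a Golgi mannosidase and ZNRF1 a ubiquitin ligase, and none of the 5 was on a monocyte list. Of 14167 genes ranked by r, LYZ stood at place 865, S100A9 at 2571, VCAN at 3393, TYROBP at 3918, FCN1 at 4082, CSF1R at 6126, CD14 at 8013, CD68 at 9744 and S100A8 at 11324. An r of at least 0.9 was reached by 110 genes (0.776%), 0 of the 9 members among them, and an r of at least 0.5 by 1258 genes (8.88%), 1 of the 9 members among them. Exactly the 3 libraries of CD300E were the ones with a count for 69 other genes (0.487%), none of which was a member.

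The monocyte genes also varied among themselves. VCAN took 73.0%, 64.3% and 80.3% of the members' counts in 13EP12, 13EP8 and 15CP6, 59.0% in 15CP1, 33.3% in 14HP24 and 19.8% in 13EP5. TYROBP took 35.2% in 13EP5 and from 2.38% to 10.4% in the other 5 libraries, and LYZ took 48.8% in 14HP24. Of the counts of S100A9 and TYROBP together, S100A9 was 67.7% in 13EP12, 56.6% in 13EP8 and 44.0% in 15CP1. In 13EP5 it was 0% of 328, with an exact 95% upper bound of 1.12%. The make-up of 13EP5 therefore differed from that of 13EP12, 13EP8 and 15CP1 beyond counting error.

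**Figure D5:**
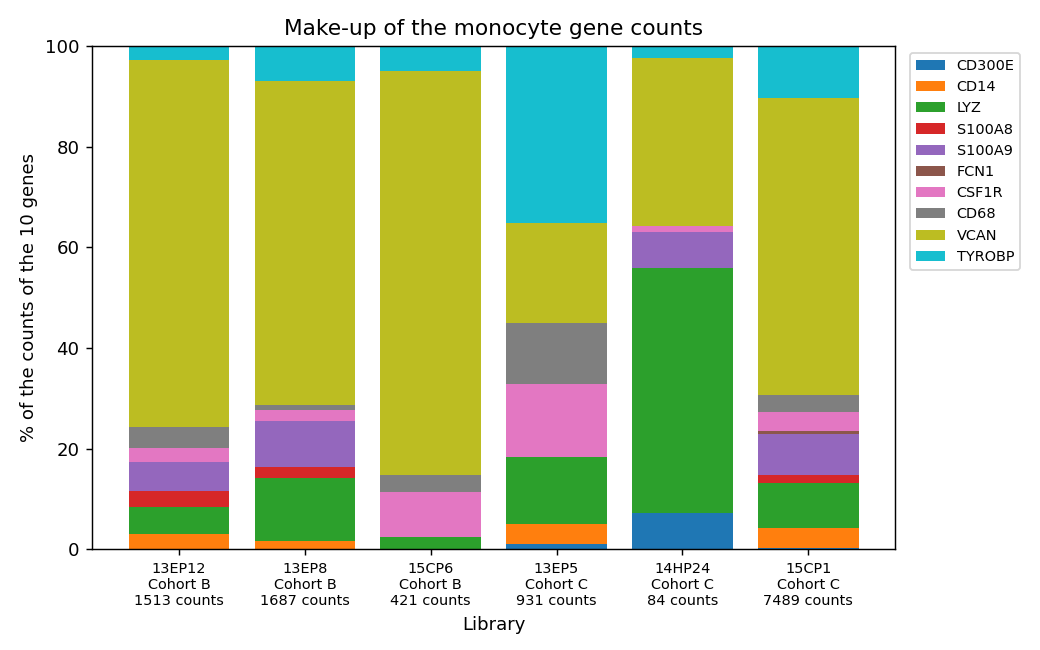
Make-up of the monocyte gene counts in the 6 libraries with more than 3 such counts, each bar being 100% of the counts of the 10 genes and each colour 1 gene. VCAN is the largest part in 13EP12, 13EP8, 15CP6 and 15CP1, TYROBP in 13EP5 and LYZ in 14HP24.

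On the FPKM scale, which allows for transcript length, the level order of members within 15CP1 was TYROBP at 202, S100A9 at 101, VCAN at 67.7, CD14 at 23.6, LYZ at 22.1, CD68 at 17.8, S100A8 at 16.0, CSF1R at 12.6, FCN1 at 2.05 and CD300E at 0. TYROBP was listed at 977 FPKM in 13EP5, 204 in 13EP8 and 18.1 in 13EP12. Of the 100 pairs of member and library, 46 had a count and 33 an FPKM above 0, and the remaining 13 with a count were listed at 0 FPKM. With 1 library per monkey, the order within 15CP1 has no replicate error.

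CD300E is one of several CD300 receptors that bind lipids on myeloid cells. Of the other 6, CD300A (an inhibitory receptor) had 16 counts in 13EP12 and 15 in 15CP1, CD300C had 19 in 13EP8 and 15 in 15CP1, and CD300LF had 20 in 13EP12, 10 in 13EP8, 4 in 13EP5 and 10 in 15CP1. CD300LB had 10 counts and CD300LD 2, all in 15CP1, and CD300LG had none. 13EP12 and 13EP8 therefore held RNA of the family without a CD300E count, and 14HP24 held CD300E counts without any of the other 6. None of the 4 relatives tested was called, beside 6.43% of all genes, and 1 had a positive and 3 a negative fitted change with standard errors of 1.60 to 1.93. CD300 genes resemble each other and the macaque reads were placed on the human genome, so counts of single family members are uncertain.

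Other genes of myeloid cells were also counted, in part in other libraries. Of the second monocyte list, 24 of 30 genes were tested, 11 with a positive and 13 with a negative fitted change, and none was called (6.43% of all genes); their median was -0.45. Over all genes tested, the fitted change was positive for 7586 of 14168. The list summed to 1965 counts in 13EP12, 1691 in 13EP8, 209 in 14HP26, 279 in 15CP6, 4485 in 13EP5, 14 in 14HP33, 52 in 14HP24 and 8517 in 15CP1. 14HP26 thus held counts of this list with none of the 10 members. S100A12, CD36, CLEC4E, AIF1 and FCGR1A of that list were at 0 in every library, also in 15CP1, the deepest. Macaque reads were placed on the human genome, and the part of mapping in these zeros was not tested. For signalling downstream of adaptors such as TYROBP, 8 of 10 genes were tested, 6 with a positive and 2 with a negative change, and none was called; the kinase gene SYK had 83 counts in 13EP12, 129 in 13EP8, 182 in 13EP5, 16 in 14HP33, 7 in 14HP24 and 432 in 15CP1. All 8 myeloid transcription factor genes were tested, 6 with a positive and 2 with a negative change, and none was called. SPI1, the master regulator of the myeloid lineage, had 129 counts in 13EP12, 111 in 13EP8, 90 in 13EP5, 4 in 15CP4 and 804 in 15CP1. In 14HP24 SPI1 was at 0, whereas KLF4 of the same list had 28 counts. 15CP4, with no count of the 10 members, had 93 counts of the transcription factor list.

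Markers of other cells that share genes with monocytes were counted in the same libraries. Neutrophil genes summed to 216 counts in 13EP12, 342 in 13EP8, 44 in 14HP26, 94 in 15CP6, 46 in 13EP5 and 1628 in 15CP1, and 3 of the 8 tested had a positive change, 5 a negative one, with none called. Dendritic cell genes summed to 112 in 13EP12, 45 in 13EP8, 1 in 14HP26, 55 in 15CP6, 368 in 13EP5 and 180 in 15CP1, and 1 of 6 tested was called, beside 6.43% of all genes. This was CLEC9A, lower in Cohort C, which passed the filter on summed counts through 15CP6 alone, where all 16 of its counts were. The B cell list summed to 65 in 13EP12, 122 in 13EP8, 169 in 13EP5 and 499 in 15CP1 and to at most 12 elsewhere, and none of its 8 genes was called. In 14HP24 the neutrophil, dendritic cell, NK cell and B cell lists were all at 0. The part of these cells in the monocyte gene counts was not tested.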

How the data were processed

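RNA of sorted Tr1 cells was sequenced from 10 rhesus macaques, 1 library each, grouped by the labels' cohort. Per the labels and the study's methods, stranded libraries were read as 50 bp pairs and mapped with HISAT2 2.0.2 to human hg38. The authors deposited raw counts per gene, for which options on strand, duplicates and multiple matches are not given in the sources used here, and FPKM values from Cuffdiff 2.2.1. Total counts per library ranged from 6076 to 5895609.

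Counts were tested with edgeR 4.0.16 (R 4.3.3; TMM, quasi-likelihood test, Cohort C against Cohort B, no covariate) over 14168 genes with at least 10 summed counts, at an unadjusted p under 0.01 with 1.5-fold, as in the study, and at an adjusted p under 0.05. The SE comes from the fold change and its test statistic. DESeq2 1.42.0, limma 3.58.1 (voom, and log2(FPKM + 1) at a mean FPKM of at least 1) and other settings were alternatives. Permutation tests were run in Python 3.11.15 on log2(CPM + 1), with 100000 resamples for correlations. Ranks, adjusted p of the correlations and binomial intervals came from scipy 1.17.1. Shares have exact Clopper-Pearson 95% intervals, and a count of 0 allows 3 counts. Rows of 2 repeated names were kept apart.

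The genes that could be named were the 10 members, the 3 with most counts of each list, the 5 most correlated with CD300E, and any gene behind a count of 5 or fewer; CD300LB, CD300LD and CD300LG complete their family. The members and lists were chosen with earlier results of these data known.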

Additional observations from a re-analysis of the deposited data

Results flagged for a closer look

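Of 24 sets of 5 values examined (each member, the total counts and the summed CPM of the members, in each cohort), 2 had a value far from the others of its cohort. S100A8 in Cohort C was at 4.78 in log2(CPM + 1) in 15CP1 and at 0 in the other 4 libraries, and FCN1 was at 3.34 in 15CP1 and at 0 in the other 4. The gap made up the whole range in both. Chance flags about 1 in 20 such sets, although that rate was not made for sets with tied zeros. 15CP1 was the deepest library. Whether depth sets both values was not tested.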

How the results depend on the processing

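No monocyte gene that was tested passed an unadjusted p under 0.01 with 1.5-fold in the 22 alternatives (4 of 10 were tested with filterByExpr, 8 on log2(FPKM + 1) and 9 without 15CP1), and none correlated with CD300E at an adjusted p under 0.05 in any of 15. The number of all genes called, 911, was 563 with DESeq2's size factors from positive counts, 10 with filterByExpr, 22 with DESeq2, 67 with limma-voom, 341 with edgeR's exact test, 98 with the index suffix as a covariate and 326 with libraries of at least 100000 counts. Leaving out 1 library gave 76 to 695 calls: 76 without 13EP5, 143 without 15CP1, 515 without 14HP33, 567 without 14HP24, 583 without 13EP8, 587 without 15CP6 and 597 without 14HP26. With the replicate block no gene was called by edgeR (9 had an unadjusted p under 0.05); same numbers mark different monkeys, and their deviations correlated at r from -0.43 to 0.38, so the samples are not paired. The split of 152 higher and 759 lower genes became 65 and 11 without 13EP5, 70 and 73 without 15CP1, 50 and 48 with the suffix, and 12 and 10 with DESeq2. The median log2 fold change of all genes was -0.11 with library size only and 0.34 with the positive-count size factors. The causes were not tested.

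The fold change of CD300E stayed positive in 20 alternatives, from 2.56 with limma-voom to 6.88, with p from 0.0109 to 0.137. Every Cohort B count was 0 and the gene was chosen from these libraries, so the constant sign is no check of the difference. It was 4.55 without 14HP24. CD300E was among the genes not tested with filterByExpr and on FPKM. Its difference in log2(CPM + 1) ran from 1.06 to 2.34 when 1 library was left out, with exact permutation p = 0.0476 without 14HP33 or without 15CP4, so that 0 or 1 member passed. That p too is the lowest that the tied zeros allow, so nothing is read from its passing. The share in 13EP5 was 0.222% on the second monocyte list. S100A8 reached -6.48 without 15CP1, past an unadjusted p under 0.05, where FCN1 could not be tested. The r of CD300E with LYZ was -0.32 in log2(FPKM + 1), where CD300E is above 0 in 14HP24 alone and LYZ is listed there at 0. It was 0.53 to 0.59 in the other settings, and 0.49 to 0.71 with 1 library left out; the highest, without 13EP8, had an adjusted permutation p of 0.051, and the unadjusted permutation p with a pseudocount of 5 was 0.0157.

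Fold changes near 0 changed sign. With library size only CD14 was at -0.10, with limma-voom CD14 at -0.16 and TYROBP at -0.071, with the replicate block CD14 at -0.95, LYZ at -0.51 and CSF1R at 0.20, with the suffix CD14 at -1.01, with positive-count size factors CD68 at 0.0062 and with DESeq2 at 0.0053, and on log2(FPKM + 1) LYZ at -0.43, CSF1R at 0.74 and CD68 at 1.11. Leaving out 1 library gave CD14 -1.90 to 1.10, LYZ -0.21 to 1.78, S100A9 -2.16 to 0.61, CSF1R -0.96 to 0.33, CD68 -1.12 to 0.56 and TYROBP -0.14 to 1.40. A count of 0 allows 26.3 CPM of the library total or more in 14HP26, 14HP31 and 15CP4. In 14HP33 it allows 3.10, below the 43.8 of CD300E in 14HP24. On the TMM scale the order was the other way, with a limit of 42.7 in 14HP33 and CD300E at 34.6 in 14HP24. The zero of 14HP33 is therefore not read as a lower level.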

Other observations

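Platelet genes stood high in 1 library. They summed to 1273 counts in 13EP5, 28 in 15CP1, 26 in 13EP12, 8 in 13EP8 and 0 in the other 6 libraries. TUBB1, the platelet tubulin, had 398 counts in 13EP5, ITGB3, a subunit of the fibrinogen receptor, had 373, and the chemokine gene PPBP had 285. All 6 platelet genes tested had a positive fitted change, with a median log2 fold change of 4.02, beside 7586 positive of 14168 genes and a median of 0.16 over all genes. 1 of the 6, ITGB3, was called (6.43% of all genes) by edgeR's quasi-likelihood test at an unadjusted p under 0.01 (log2 fold change 7.81 ± 2.94, adjusted p = 0.141), and 373 of its 377 counts came from 13EP5. 13EP5 was the library with TYROBP as its leading monocyte gene and no S100A8 or S100A9 count, and platelet genes were at 0 in 14HP24, which had CD300E counts as well.

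IRF8, a transcription factor of monocytes, dendritic cells and B cells, had 5717 counts in 13EP5, 573 in 15CP1, 224 in 15CP6, 204 in 13EP12, 109 in 13EP8 and 89 in 15CP4. Its log2 fold change was 1.61 ± 1.93. The erythroid list had 192 counts in 15CP6, 93 in 14HP33 and 6 in 14HP26, of which HBB, the beta-globin gene, gave 186 in 15CP6 and 93 in 14HP33; neither 14HP33 nor 14HP26 had counts of the 10 monocyte genes above the floor. Housekeeping genes such as ACTB and EEF1A1 summed to 25 counts in 14HP31, 53 in 14HP33, 86 in 14HP26 and 301 in 15CP4, the 4 libraries with at most 2 counts of the 10 monocyte genes, and to 766 in 14HP24.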
